A study of Homo sapiens with 9 samples.

Results

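The genes described here are 45 members of the solute carrier (SLC) families that move amino acids, sugars and nucleosides across cell membranes. They are a part of these families that was chosen with earlier results of these data known. Each was matched by its Ensembl identifier to the deposited table of 60664 genes. Of the 45 genes, 40 passed the filter on low counts and were tested among 17207 genes, while 5 had too few counts for a test. The study compared lines of Huh-7 cells. Huh-7 is a human hepatocellular carcinoma line, and vault RNAs (vtRNAs) are short noncoding RNAs, some of which are found in the vault particle. The 3 lines were wild type cells (WT), cells without vtRNA1-1 (1-1 KO) and cells without vtRNA1-2 (1-2 KO), each with 3 mRNA libraries. WT and 1-1 KO cells came from another laboratory, and 1-2 KO is a single clone made from the WT cells with CRISPR/Cas9. All lines were untreated and grown in DMEM F12 with serum. Since each genotype is 1 line, the effect of a knockout and the history of its line cannot be told apart, and the p-values measure the spread between the libraries of a line.

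Membrane carriers of the SLC families bring nutrients into the cell along or against their gradients. Some carry their cargo passively, such as the glucose carriers of SLC2, and others are driven by sodium or protons, such as SLC5, SLC6, SLC28, SLC36 and SLC38. Many amino acid carriers are exchangers, and the light chains of SLC7 reach the plasma membrane only when they are joined to a heavy chain of SLC3. Hepatocytes take up glucose, alanine, glutamine and cationic amino acids from portal blood, and hepatoma cells often carry more of the exchangers that bring in leucine and glutamine. When amino acids run short, the factor ATF4 raises transcription of several of these carriers and of enzymes such as asparagine synthetase.

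Total counts were between 32384469 and 41782387 per library. The targeted RNAs could not be checked here, since VTRNA1-1 had at most 1 count and VTRNA1-2 had 0 counts in all libraries, as mRNA libraries do not capture them. The study itself assessed them by northern blot in the 3 lines that were sequenced. All 9 hepatocyte and hepatoma markers were detected in every line, and their summed level was 15000 to 16000 CPM (counts scaled to a common library size) in WT, 31200 to 32100 CPM in 1-1 KO and 21200 to 23200 CPM in 1-2 KO. The sum follows a few abundant genes such as ALB, AFP and APOB, and of the single markers 8 were called higher and 0 lower in 1-1 KO (median log2 fold change 0.58), with 4 higher and 3 lower in 1-2 KO (median 0.03). Among all tested genes, 32.5% were called higher and 30.9% lower in 1-1 KO, and 28.2% and 26.2% in 1-2 KO. These shares also stand beside the marker calls that follow. Markers of other cell types also differed between lines. Of 6 leukocyte markers, 3 or 4 were over 3 counts, led by LYZ, with summed levels of 115 CPM in WT, 102 to 107 CPM in 1-1 KO and 21.5 to 22.4 CPM in 1-2 KO, while CD68 was at 3 counts or fewer in every line. The sum is mostly LYZ, which was called lower in both knockouts, whereas the other tested markers, PTPRC and CD14, were called higher in both. Of 5 endothelial markers, 2 were over 3 counts, led by PECAM1, with 7.42 to 8.04, 6.43 to 7.22 and 0.831 to 1.1 CPM in the same order, and KDR was at 3 counts or fewer. Of 7 fibroblast and stellate markers, 6 or 7 were over 3 counts, led by LUM, with 188 to 200, 281 to 295 and 124 to 134 CPM. LUM was called lower in 1-2 KO, while the other 5 tested markers of this list were called higher there. The part of these differences in the results was not tested. Libraries of a line differed by more than counting error, at a chi-square of 2.08 to 16.2 for each degree of freedom. The highest values came from 1-2 KO library 1 against the other libraries of its line. In bulk RNA, a lower level can mean fewer cells with the transcript or less transcript per cell, and these cannot be told apart.

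The transporters changed in both directions in both knockouts. In 1-1 KO against WT, 17 of the 40 tested transporters rose and 14 fell, where 32.5% of all tested genes rose and 30.9% fell. In 1-2 KO against WT, 20 rose and 15 fell, against 28.2% and 26.2% of all tested genes. Called members were 77.5% of the tested members in 1-1 KO, beside 63.4% of all genes, and 87.5% in 1-2 KO, beside 54.4%, and the list as such was not tested. Changes by a log2 fold change of at least 1 were seen for 11 members in each knockout, or 27.5% of those tested, against 13.4% of all genes in 1-1 KO and 11.7% in 1-2 KO. The median log2 fold change of the members was 0.02 in 1-1 KO and 0.20 in 1-2 KO, beside 0.01 and 0.02 for all genes. Since both comparisons use the same WT libraries, the knockouts were also compared directly. In 1-2 KO against 1-1 KO, 14 members were higher and 14 lower, where 33.1% and 32.2% of all genes were called, and 11 differed by at least 1 on the log2 scale, against a background of 14.1%. Adjusted p-values are those of the quasi-likelihood test in edgeR, corrected by Benjamini and Hochberg's method across the 17207 tested genes, and errors of log2 fold changes are standard errors (SE).

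**Figure D1:**
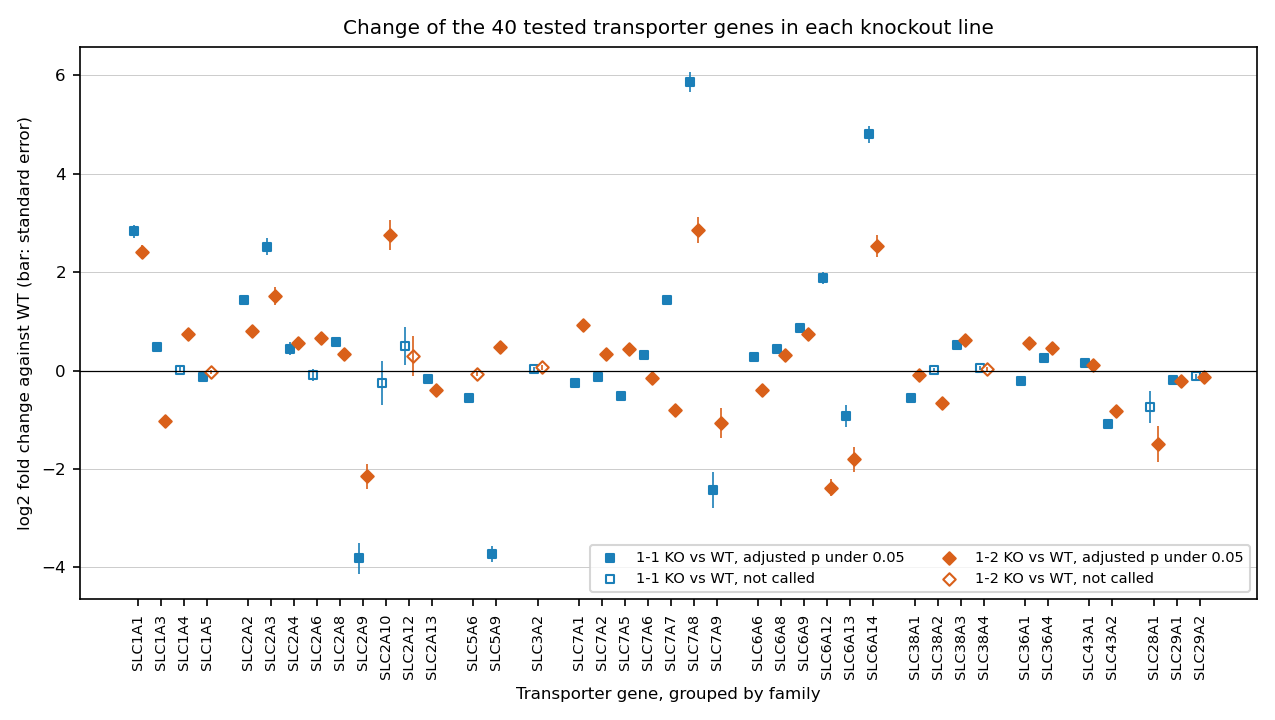
Log2 fold change against WT (vertical axis, bars are SE) of the 40 tested transporters, grouped by family, in 1-1 KO (squares) and 1-2 KO (diamonds), with 3 libraries per line and filled symbols for an adjusted p under 0.05. The largest rise was that of SLC7A8 in 1-1 KO (5.86), and the values of SLC6A12 (1.88 and -2.38) and SLC5A9 (-3.73 and 0.47) had opposite signs in the knockouts.

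To compare levels between genes, CPM were divided by the exon length in kilobases (RPKM). This length joins all annotated exons of a gene, so that genes with many transcripts, such as SLC1A3, appear lower than a single transcript would. In WT, SLC38A2, a sodium-coupled carrier of small neutral amino acids, was the most abundant with 174 ± 4.34 RPKM (SD, n = 3). It was followed by SLC7A5, the leucine carrier that exchanges large neutral amino acids, with 95.4 ± 5.68 RPKM. Next came SLC38A1 with 54.3 ± 2.12 RPKM and SLC43A1 with 53.3 ± 1.40 RPKM, which overlapped within their spread. The glutamine exchanger SLC1A5 (44.3 ± 2.36 RPKM) and the heavy chain SLC3A2 (41.6 ± 3.50 RPKM) also lay within their spread of each other. The 5 most abundant members held 62.6% of the summed RPKM of all members in WT, 59.7% in 1-1 KO and 58.6% in 1-2 KO. The order at the top differed in 1-2 KO, where SLC7A5 (130 ± 1.72 RPKM) stood above SLC38A2 (110 ± 4.34 RPKM). In each line, 15 members were at 10 RPKM or more. Members under 1 RPKM numbered 18 in WT, 13 in 1-1 KO and 16 in 1-2 KO, beside SLC28A3, which was at 0.

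**Figure D2:**
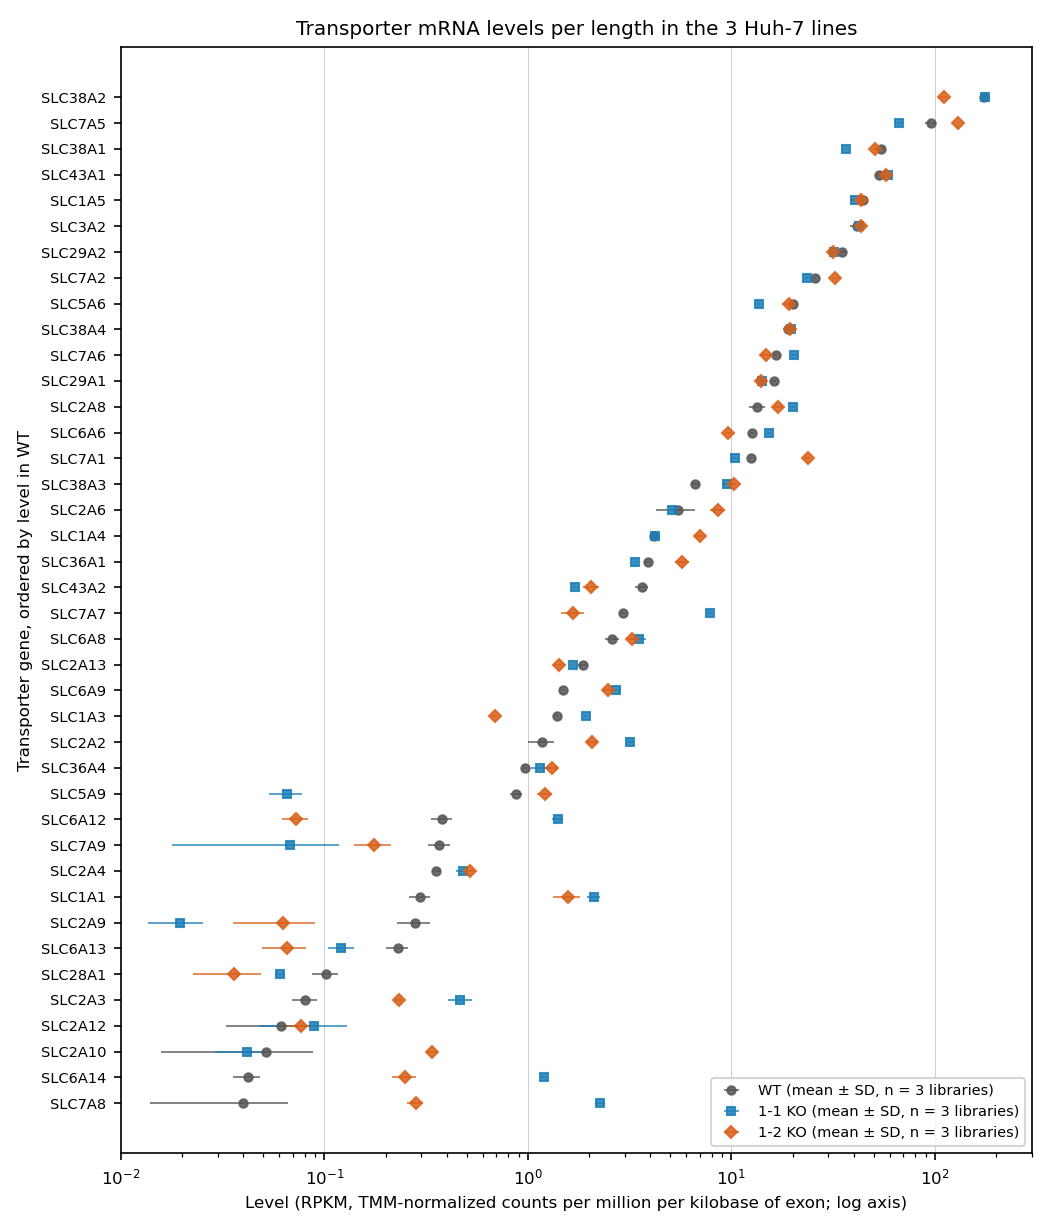
Level of each tested transporter per exon length (horizontal log axis, RPKM) in the 3 lines, as mean with SD over 3 libraries, ordered by the WT level. SLC38A2 led WT with 174 RPKM, and SLC7A8 was at 0.0400 RPKM in WT and 2.27 RPKM in 1-1 KO.

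The heavy chains were at opposite ends of expression. SLC3A2 (ENSG00000168003, GRCh38 chr11:62856004-62888880), the heavy chain that carries SLC7A5, SLC7A6, SLC7A7 and SLC7A8 to the plasma membrane, was at 252, 254 and 292 CPM in WT, at 268, 270 and 272 CPM in 1-1 KO and at 284, 270 and 279 CPM in 1-2 KO. The lines overlapped, and it was not called in any comparison, with log2 fold changes of 0.02 ± 0.05 in 1-1 KO and 0.06 ± 0.05 in 1-2 KO. WT library 3 was its highest WT value, and without that library SLC3A2 was called in both knockouts (adjusted p = 0.0377 and 0.0189), at log2 fold changes of 0.10 and 0.11. The other heavy chain, SLC3A1, partner of the cystine carrier SLC7A9, had 7 to 9 counts per library in 1-1 KO, 0 or 1 in WT and 1 or 2 in 1-2 KO. It was not tested, and its level in 1-1 KO was at least 2.31-fold higher than 3 counts per library would be in WT.

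The 7 SLC7 light chains and cationic carriers were all called in both knockouts, beside 63.4% of all genes in 1-1 KO and 54.4% in 1-2 KO, and the light chains of 1 heavy chain moved apart. SLC7A8 (ENSG00000092068, chr14:23125295-23183674), a plasma membrane exchanger of neutral amino acids, was nearly silent in WT at 0.201, 0.107 and 0.412 CPM, from 8, 4 and 13 counts. It reached 14.1, 14.1 and 12.6 CPM in 1-1 KO and 1.85, 1.56 and 1.65 CPM in 1-2 KO. Every library of both knockouts was above every WT library, and the 1-1 KO libraries were above those of 1-2 KO. The log2 fold change was 5.86 ± 0.20 in 1-1 KO (58.3-fold, adjusted p = 1.17e-11) and 2.86 ± 0.26 in 1-2 KO (7.24-fold, adjusted p = 4.39e-07). The difference between the knockouts was itself called, at -3.01 ± 0.14 for 1-2 KO against 1-1 KO (adjusted p = 1.9e-10).

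SLC7A7 (ENSG00000155465, chr14:22773222-22829820), which exports cationic amino acids in exchange for neutral ones and lies 295 kb from SLC7A8, was at 16, 15.2 and 15.8 CPM in WT. It stood at 42.9, 42.4 and 41.3 CPM in 1-1 KO and at 7.86, 10.2 and 8.81 CPM in 1-2 KO. The 3 lines did not overlap, with 1-1 KO highest and 1-2 KO lowest. It rose by a log2 fold change of 1.43 ± 0.07 in 1-1 KO (adjusted p = 6e-10) and was at -0.81 ± 0.08 in 1-2 KO (adjusted p = 8e-07), a difference of -2.24 ± 0.07 between the knockouts (adjusted p = 7.11e-12). The median log2 fold change of the 50 neighbouring tested genes was 0.53 around SLC7A7 and 0.58 around SLC7A8 in 1-1 KO, and its part in these rises was not tested.

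SLC7A9 (ENSG00000021488, chr19:32830509-32869767), the light chain for cystine and cationic amino acids, was a low transcript. It had 1.06, 0.987 and 0.824 CPM in WT, 0.307, 0.0486 and 0.172 CPM in 1-1 KO, and 0.522, 0.352 and 0.499 CPM in 1-2 KO. WT was above both knockouts without overlap. It fell by 2.42 ± 0.37 on the log2 scale in 1-1 KO (adjusted p = 4.73e-05) and by 1.06 ± 0.31 in 1-2 KO (adjusted p = 0.00903). Without 1-1 KO library 1, its highest value in that line, the log2 fold change was -3.09 in 1-1 KO against WT and 2.03 in 1-2 KO against 1-1 KO, in place of 1.36.

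Among the abundant members of SLC7, the carriers for leucine and for cationic amino acids were lower in 1-1 KO and higher in 1-2 KO than in WT. SLC7A5 (ENSG00000103257, chr16:87830023-87869507) was at 451, 429 and 483 CPM in WT, at 317, 328 and 309 CPM in 1-1 KO and at 623, 609 and 623 CPM in 1-2 KO, so that the lines did not overlap. Its log2 fold changes were -0.51 ± 0.04 in 1-1 KO (adjusted p = 1.19e-07) and 0.44 ± 0.04 in 1-2 KO (adjusted p = 7.29e-07). Reads of SLC7A5 can be shared with its pseudogene copies, and how they were split is uncertain. SLC7A1 (ENSG00000139514, chr13:29509414-29595688), the widely expressed carrier of arginine and lysine, was at 96.5, 94.1 and 96.1 CPM in WT, at 77.6, 82.1 and 79.9 CPM in 1-1 KO and at 177, 184 and 185 CPM in 1-2 KO. The 3 lines were again separate, and SLC7A1 differed by 1.19 ± 0.03 between 1-2 KO and 1-1 KO (adjusted p = 1.86e-12). SLC7A2, the cationic carrier known for a liver form, showed the same order with smaller steps, from 186 ± 4.03 CPM in 1-1 KO over 203 ± 3.19 CPM in WT to 256 ± 10.6 CPM in 1-2 KO. For SLC7A6, the other exporter of cationic amino acids, the order was the reverse, with 155 ± 4.18 CPM in 1-1 KO, 125 ± 2.40 CPM in WT and 112 ± 7.81 CPM in 1-2 KO. Its call in 1-2 KO (log2 -0.16, adjusted p = 0.0108) was lost when libraries were scaled by library size alone (adjusted p = 0.0566). In summed level the 7 SLC7 members stood at 895 ± 26.9 CPM in WT, 794 ± 17.0 CPM in 1-1 KO and 1180 ± 21.1 CPM in 1-2 KO.

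**Figure D3:**
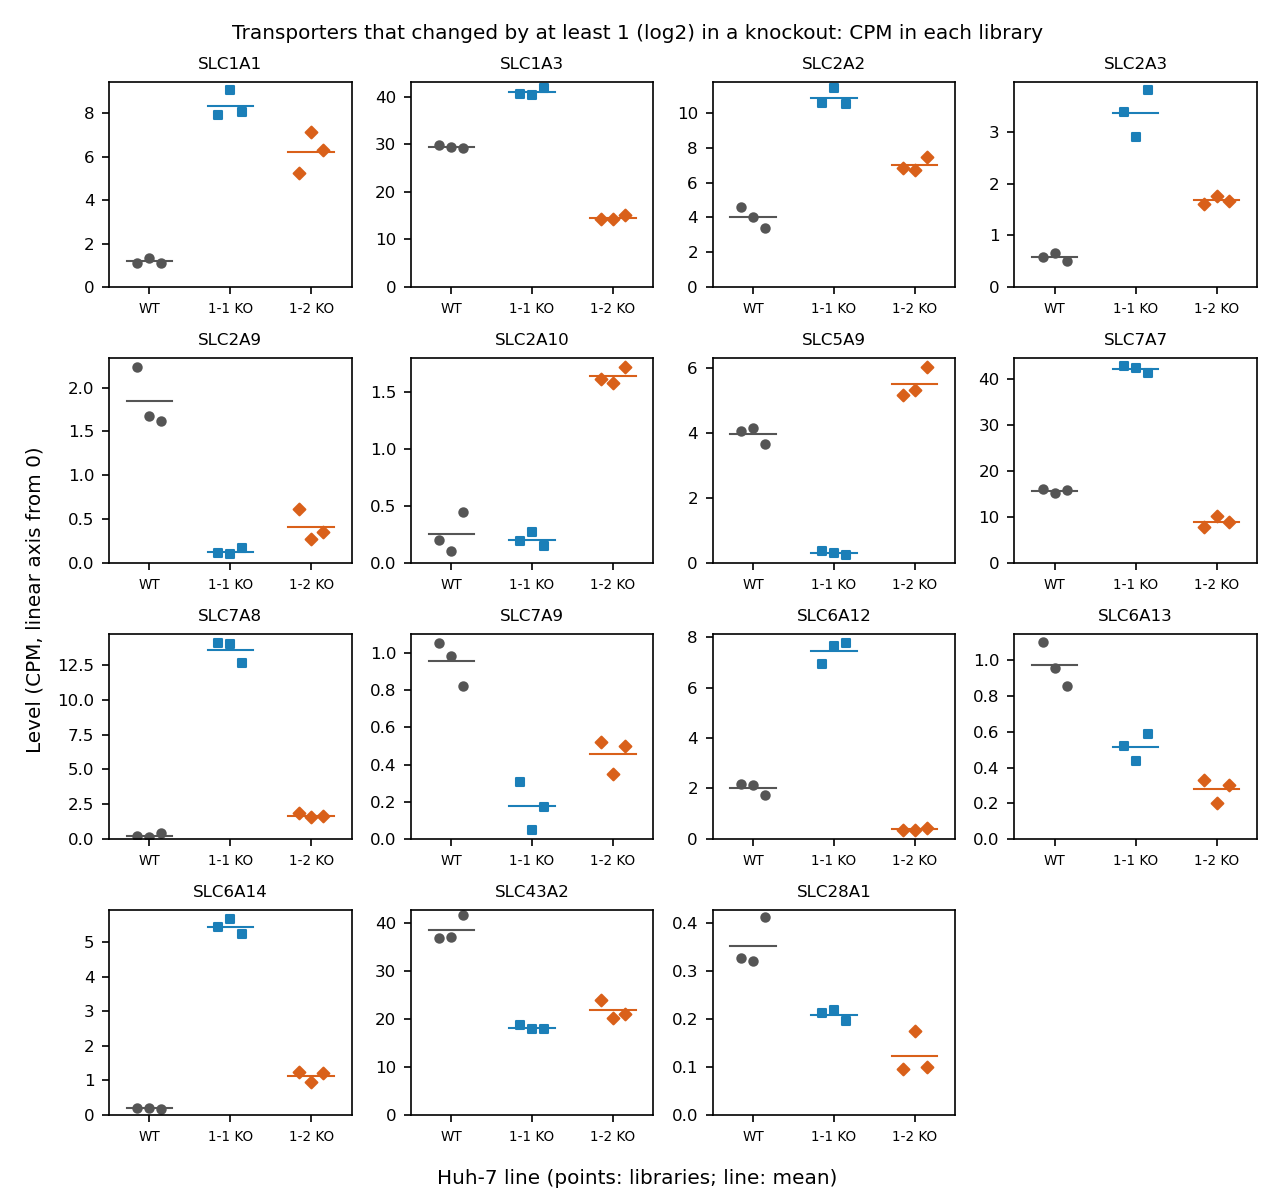
Level in each library (points, linear axis from 0, CPM) and mean of each line (horizontal bar) for the 15 transporters that changed by at least 1 on the log2 scale in a knockout. SLC7A8 and SLC6A14 were high in 1-1 KO and intermediate in 1-2 KO, SLC6A12 and SLC7A7 were highest in 1-1 KO and lowest in 1-2 KO, and SLC2A10 was high in 1-2 KO only, at 1.58 to 1.72 CPM.

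The SLC1 family holds carriers of acidic amino acids and exchangers of small neutral ones. SLC1A1 (ENSG00000106688, chr9:4490468-4587469), which takes up glutamate, aspartate and cysteine with sodium, was at 1.08, 1.33 and 1.11 CPM in WT. It was at 7.94, 9.07 and 8.06 CPM in 1-1 KO and at 5.27, 7.13 and 6.31 CPM in 1-2 KO, and both knockouts lay above WT without overlap. It rose 7.09-fold in 1-1 KO (log2 2.83 ± 0.14, adjusted p = 5.65e-10) and 5.29-fold in 1-2 KO (log2 2.40 ± 0.14, adjusted p = 5.15e-09). The related glutamate carrier SLC1A3 (ENSG00000079215, chr5:36596588-36688334) went different ways. Its WT libraries were at 29.9, 29.4 and 29.2 CPM, those of 1-1 KO at 40.6, 40.4 and 41.8 CPM and those of 1-2 KO at 14.3, 14.4 and 15.1 CPM, with no overlap between lines. SLC1A3 rose by a log2 fold change of 0.47 ± 0.04 in 1-1 KO (adjusted p = 4.84e-07) and fell by 1.02 ± 0.05 in 1-2 KO (adjusted p = 4.19e-10). Around SLC1A3, the median of the 50 neighbouring tested genes was -0.88 in 1-2 KO, and its part in the fall was not tested. SLC1A2, the third glutamate carrier, had 1 to 11 counts per library and was not tested.

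Of the neutral exchangers in the family, SLC1A4, a carrier of alanine, serine and cysteine, rose in 1-2 KO by 0.74 ± 0.05 (adjusted p = 1.47e-08), from 29.1 ± 1.43 to 48.7 ± 1.87 CPM, and was at 29.4 ± 0.545 CPM in 1-1 KO. SLC1A5 differed little between lines, with 148 ± 7.87 CPM in WT, 134 ± 5.00 CPM in 1-1 KO and 144 ± 1.40 CPM in 1-2 KO. Its call in 1-1 KO (log2 -0.14, adjusted p = 0.0107) was lost without WT library 3 (adjusted p = 0.0557) or without 1-1 KO library 3 (adjusted p = 0.0572).

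The system A and N carriers of SLC38 had the highest summed CPM of the families in each line, without scaling by exon length. The sum was 1784 ± 51.6 CPM in WT, 1638 ± 10.4 CPM in 1-1 KO and 1349 ± 41.8 CPM in 1-2 KO. SLC38A2 (ENSG00000134294, chr12:46358188-46372773) was at 1145, 1157 and 1103 CPM in WT, at 1153, 1139 and 1160.1 CPM in 1-1 KO and at 693, 749 and 715 CPM in 1-2 KO. It was lower in 1-2 KO than in every library of the other lines, by 0.66 ± 0.04 on the log2 scale against WT (adjusted p = 2.6e-09), and was not called in 1-1 KO. SLC38A1, which lies 88.2 kb from SLC38A2 and carries glutamine, showed its lower level in 1-1 KO instead, with 367, 365 and 371 CPM against 544, 565 and 523 CPM in WT (log2 -0.56 ± 0.04, adjusted p = 9.84e-09). In 1-2 KO it stood at 496, 523 and 510 CPM, which touched the WT range, and its call there (adjusted p = 0.0427) was lost when any of 7 libraries was left out. SLC38A3, the glutamine carrier of hepatocytes, rose in both knockouts, by 0.52 ± 0.05 (adjusted p = 9.93e-07) and 0.63 ± 0.05 (adjusted p = 2.01e-07). SLC38A4, another liver carrier of this group, was at 78.4 ± 3.40, 81.2 ± 1.29 and 80.2 ± 2.31 CPM in WT, in 1-1 KO and in 1-2 KO and was called in none of the comparisons.

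The sodium- and chloride-coupled SLC6 family held both shared changes and changes of opposite direction in the knockouts. SLC6A14 (ENSG00000268104, chrX:116436606-116461458), which takes up neutral and cationic amino acids with broad specificity, was at 0.201, 0.213 and 0.159 CPM in WT, from 5 to 8 counts per library. It was at 5.44, 5.67 and 5.22 CPM in 1-1 KO and at 1.23, 0.954 and 1.20 CPM in 1-2 KO, with no overlap between the lines. The rise was 27.8-fold in 1-1 KO (log2 4.8 ± 0.18, adjusted p = 2.77e-11) and 5.78-fold in 1-2 KO (log2 2.53 ± 0.22, adjusted p = 2.85e-07). SLC6A12 (ENSG00000111181, chr12:190077-214570), the carrier of betaine and GABA, was at 2.16, 2.13 and 1.74 CPM in WT, at 6.92, 7.66 and 7.77 CPM in 1-1 KO and at 0.356, 0.352 and 0.449 CPM in 1-2 KO. It rose 3.68-fold in 1-1 KO (log2 1.88 ± 0.11, adjusted p = 4.48e-09) and fell 5.22-fold in 1-2 KO (log2 -2.38 ± 0.17, adjusted p = 3.9e-08). Between the knockouts it differed 19.2-fold (log2 -4.26 ± 0.15, adjusted p = 9.37e-12), the largest difference of a member in the direct comparison.

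Next to it, 6.05 kb away on the same strand, SLC6A13 (ENSG00000010379, chr12:220621-262873) carries GABA and taurine in liver. It had 1.11, 0.960 and 0.856 CPM in WT, 0.520, 0.438 and 0.588 CPM in 1-1 KO, and 0.332, 0.201 and 0.299 CPM in 1-2 KO. Both knockouts were below WT, with a log2 fold change of -0.92 ± 0.22 in 1-1 KO (adjusted p = 0.00226) and -1.80 ± 0.25 in 1-2 KO (adjusted p = 2.76e-05). The neighbouring genes SLC6A12 and SLC6A13 thus differed in direction in 1-1 KO and fell together in 1-2 KO.

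Smaller changes were seen in the other 3 members of SLC6. The glycine carrier SLC6A9 rose in both knockouts, by 0.87 ± 0.07 (adjusted p = 9.19e-08) and 0.74 ± 0.07 (adjusted p = 7.37e-07), and the creatine carrier SLC6A8 by 0.43 ± 0.08 (adjusted p = 0.000255) and 0.32 ± 0.08 (adjusted p = 0.0035). SLC6A8 has a near-identical pseudogene copy, so that the split of its reads is uncertain. The taurine carrier SLC6A6 rose from 105 ± 2.42 CPM in WT to 126 ± 2.51 CPM in 1-1 KO (adjusted p = 9.45e-06) and fell to 79.5 ± 2.13 CPM in 1-2 KO (adjusted p = 3.5e-07).

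Of 9 facilitative sugar carriers of SLC2, 4 were called higher and 2 lower in 1-1 KO, with 6 higher and 2 lower in 1-2 KO. These are 66.7% and 88.9% of the 9, beside 63.4% and 54.4% of all genes. SLC2A2 (ENSG00000163581, chr3:170996347-171026743), the low-affinity glucose carrier that marks hepatocytes, was at 4.60, 4.03 and 3.39 CPM in WT. It was at 10.6, 11.4 and 10.5 CPM in 1-1 KO and at 6.84, 6.75 and 7.46 CPM in 1-2 KO, and the lines did not overlap. The rise was 2.69-fold in 1-1 KO (log2 1.43 ± 0.10, adjusted p = 2.16e-08) and 1.74-fold in 1-2 KO (log2 0.80 ± 0.10, adjusted p = 1.47e-05). SLC2A3 (ENSG00000059804, chr12:7919230-8019007), a high-affinity glucose carrier, was at 0.578, 0.667 and 0.507 CPM in WT, at 3.40, 2.92 and 3.82 CPM in 1-1 KO and at 1.61, 1.76 and 1.67 CPM in 1-2 KO. Both knockouts were above WT, by 2.52 ± 0.16 (adjusted p = 9.38e-09) and 1.51 ± 0.18 (adjusted p = 6.06e-06) on the log2 scale. These values are uncertain because reads can be shared with the near-identical copy SLC2A14, which itself was at 1.48 in 1-1 KO and -0.20 in 1-2 KO on the same scale.

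SLC2A10 (ENSG00000197496, chr20:46709649-46736347), a carrier of the same fold found on internal membranes, was at 1.61, 1.58 and 1.72 CPM in 1-2 KO, against 0.201, 0.107 and 0.444 CPM in WT and 0.189, 0.267 and 0.147 CPM in 1-1 KO. The WT and 1-1 KO libraries overlapped, and those of 1-2 KO stood above both. Counts were 8, 4 and 14 in WT, 8, 11 and 6 in 1-1 KO and 68, 63 and 69 in 1-2 KO. SLC2A10 passed the filter on low counts only through 1-2 KO, so the filter and the calls rest on the same libraries. The log2 fold change was 2.76 ± 0.30 in 1-2 KO against WT (adjusted p = 2.89e-06) and 3.01 ± 0.30 against 1-1 KO (adjusted p = 7.58e-07). Without WT library 3 the value against WT was 3.36. SLC2A9 (ENSG00000109667, chr4:9771153-10054936), the urate carrier, was at 2.24, 1.68 and 1.62 CPM in WT, at 0.118, 0.0973 and 0.172 CPM in 1-1 KO and at 0.617, 0.276 and 0.349 CPM in 1-2 KO. It was lower in both knockouts, 14.1-fold in 1-1 KO (log2 -3.82 ± 0.32, adjusted p = 1.26e-07) and 4.42-fold in 1-2 KO (log2 -2.14 ± 0.26, adjusted p = 6.3e-06). These folds rest on 5, 4 and 7 counts in 1-1 KO, near the floor of 3, and on 26, 11 and 14 in 1-2 KO.

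The other sugar carriers moved by less than 1 on the log2 scale. SLC2A8, a glucose carrier of internal membranes, rose from 52.8 ± 4.79 CPM in WT to 79.2 ± 1.79 CPM in 1-1 KO (adjusted p = 6.67e-07) and 66.8 ± 3.68 CPM in 1-2 KO (adjusted p = 0.000175). SLC2A6, a lysosomal member, rose in 1-2 KO to 30.3 ± 2.56 CPM from 19.2 ± 4.21 CPM in WT (adjusted p = 0.000163), and WT library 3, at 24.1 CPM, stood above the other WT libraries at 16.5 and 17.2 CPM. SLC2A4, the insulin-responsive glucose carrier, rose slightly in both knockouts (log2 0.44 and 0.55, adjusted p = 0.00989 and 0.00286). SLC2A13, a carrier of myo-inositol, fell by 0.16 and 0.40, and its call in 1-1 KO was lost when any of 5 libraries was left out. SLC2A12 was not called, with 6 to 30 counts per library.

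Of the sodium-coupled SLC5 carriers, SLC5A9 and SLC5A6 were expressed. SLC5A9 (ENSG00000117834, chr1:48222685-48248644), which carries mannose, fructose and other sugars, was at 4.07, 4.16 and 3.68 CPM in WT and at 5.18, 5.32 and 6.04 CPM in 1-2 KO, but at 0.354, 0.292 and 0.245 CPM in 1-1 KO. The 1-1 KO libraries were below all others. It was 13.2-fold lower in 1-1 KO than in WT (log2 -3.73 ± 0.16, adjusted p = 1.8e-10), while it was higher in 1-2 KO by 0.47 ± 0.11 (adjusted p = 0.00179). SLC5A6, the carrier of biotin and pantothenate, also fell in 1-1 KO, from 112 ± 4.16 to 76.1 ± 1.47 CPM (adjusted p = 1.96e-07), and was at 108 ± 7.98 CPM in 1-2 KO. The intestinal and renal glucose carriers SLC5A1 and SLC5A2 had at most 1 and 6 counts per library and were not tested.

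The remaining amino acid carriers were those of SLC43 and SLC36. SLC43A2 (ENSG00000167703, chr17:1569268-1628886), a facilitative carrier of leucine and other large neutral amino acids, was at 36.8, 37.0 and 41.5 CPM in WT, at 18.6, 17.9 and 17.9 CPM in 1-1 KO and at 23.9, 20.2 and 21.0 CPM in 1-2 KO. Both knockouts were below WT, by 1.08 ± 0.07 (adjusted p = 6.81e-09) and 0.82 ± 0.07 (adjusted p = 1.39e-07) on the log2 scale. Its relative SLC43A1 was much more abundant and changed little, with log2 fold changes of 0.15 in 1-1 KO (adjusted p = 0.00297) and 0.10 in 1-2 KO (adjusted p = 0.0292), the second of which was lost without WT library 1, WT library 2 or 1-2 KO library 3. The lysosomal proton-coupled carrier SLC36A1 was lower in 1-1 KO (log2 -0.21 ± 0.06, adjusted p = 0.00637) and higher in 1-2 KO (0.56 ± 0.06, adjusted p = 1.76e-06). SLC36A4, which shares its fold, rose in both knockouts by 0.25 ± 0.08 (adjusted p = 0.0161) and 0.45 ± 0.08 (adjusted p = 0.000348), and the first call was lost without 1-1 KO library 1 or 2.

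Nucleoside carriers fell or were not called. SLC29A1, the main equilibrative carrier of nucleosides, was at 69.6 ± 1.90 CPM in WT, 61.1 ± 2.24 CPM in 1-1 KO (adjusted p = 0.00136) and 59.9 ± 2.32 CPM in 1-2 KO (adjusted p = 0.000561). SLC29A2 was at 94.7 ± 6.35, 87.3 ± 2.73 and 86.2 ± 4.14 CPM in WT, in 1-1 KO and in 1-2 KO. Its adjusted p was 0.0559 in 1-1 KO and 0.0336 in 1-2 KO, and the call in 1-2 KO was lost without WT library 1 or 3 or without 1-2 KO library 2 or 3. In 1-1 KO, SLC29A2 was in turn called lower in 3 of 9 fits with 1 library left out and in 4 of 6 other alternatives. The sodium-coupled SLC28A1 (ENSG00000156222, chr15:84884654-84945798), a carrier of pyrimidine nucleosides, had 12 or 13 counts per library in WT, 8 or 9 in 1-1 KO and 4 to 7 in 1-2 KO. It fell by 1.48 ± 0.36 on the log2 scale in 1-2 KO (adjusted p = 0.00327) and was at -0.73 ± 0.33 in 1-1 KO (adjusted p = 0.0645). SLC28A1 passed the filter on low counts only through WT, so the filter and this call rest on the same libraries. SLC28A3 had 0 counts in all 9 libraries, which allows up to 3 counts in each by counting error alone.

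Changes of the transporters were set beside those of their neighbours on the chromosome. The median log2 fold change of the 50 neighbouring tested genes was under 0.5 in size for all tested members except SLC7A7 and SLC7A8 in 1-1 KO and SLC1A3 in 1-2 KO. After this median was subtracted, 10 of the 11 members with a log2 fold change of at least 1 kept such a value in 1-1 KO, all but SLC7A7. In 1-2 KO, 10 of 11 kept it as well, all but SLC1A3. In 1-2 KO against 1-1 KO, the neighbour median was at least 0.5 in size for SLC1A3, SLC7A7 and SLC7A8. There, 8 of 11 kept a difference of at least 1, all but SLC1A3, SLC2A3 and SLC7A1. These counts largely follow from the small neighbour medians, and the share among all genes was not computed. The part of the neighbours in the changes was not tested.

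**Figure D4:**
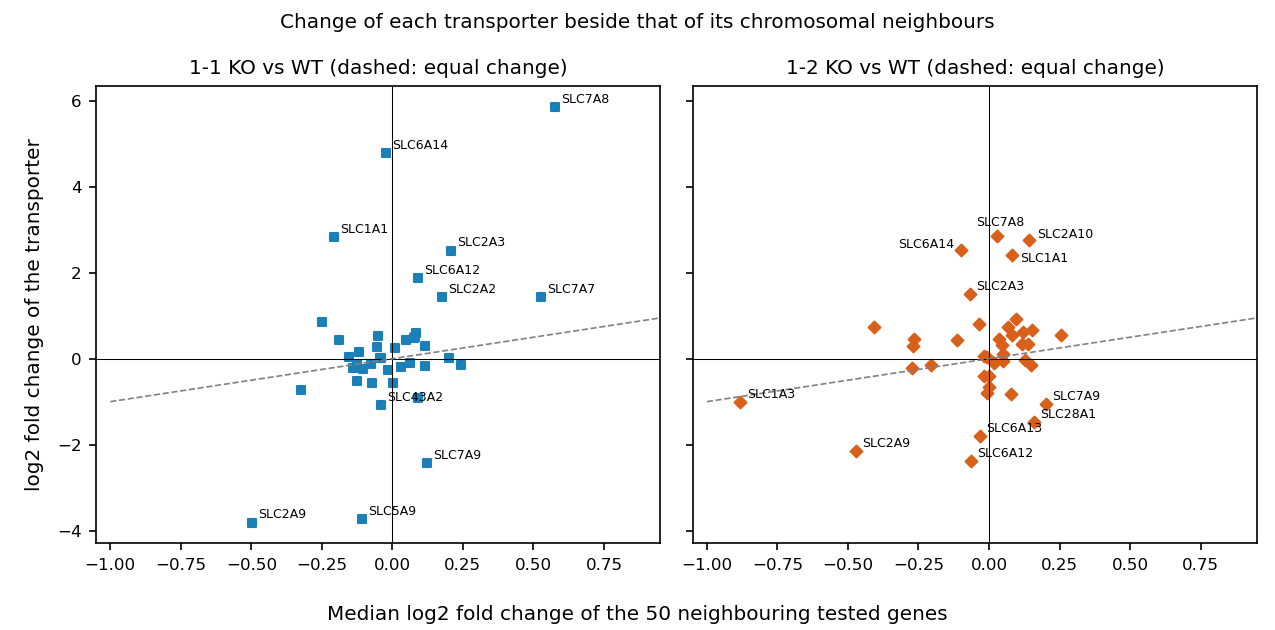
Log2 fold change against WT of each tested transporter (vertical axis) beside the median of its 50 neighbouring tested genes (horizontal axis), for 1-1 KO on the left and 1-2 KO on the right, with a dashed line for equal values. SLC1A3 in 1-2 KO lies near the dashed line, with -1.02 beside a neighbour median of -0.88, while most of the labelled members lie far from it.

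All 4 listed partners that bring such carriers to the membrane were called in both knockouts, where 63.4% of all genes were called in 1-1 KO and 54.4% in 1-2 KO, and 1 is described here. CLTRN (ENSG00000147003), the collectrin that escorts SLC6A19 in kidney, rose 8.90-fold in 1-1 KO (log2 3.15 ± 0.09, adjusted p = 2.13e-12) and was lower in 1-2 KO (-0.46 ± 0.11, adjusted p = 0.00345). SLC6A19 (ENSG00000174358) itself, a neutral amino acid carrier outside the 45 genes, was at 7.14, 6.05 and 8.21 CPM in WT, at 16.2, 17.8 and 16 CPM in 1-1 KO and at 0.332, 0.377 and 0.324 CPM in 1-2 KO. It rose by 1.23 ± 0.10 in 1-1 KO (adjusted p = 6.28e-08) and fell by 4.36 ± 0.16 in 1-2 KO (adjusted p = 3.79e-11). With SLC6A12, SLC6A19 was thus higher in 1-1 KO and lower in 1-2 KO than in WT.

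In all, 47 further genes of the same families were listed, and 24 of them had enough counts for a test. In 1-1 KO, 13 of these were called higher and 8 lower, and for 1-2 KO the numbers were 6 and 13, beside 32.5% higher and 30.9% lower among all genes in 1-1 KO and 28.2% and 26.2% in 1-2 KO. By the rule for genes outside the 45, which asked for a log2 fold change of at least 2 in a knockout, SLC6A19 and 3 more of them are named. The serotonin carrier SLC6A4 rose by 2.15 ± 0.16 in 1-1 KO (adjusted p = 3.92e-08), from 0.754, 1.07 and 0.824 CPM to 3.76, 4.23 and 3.77 CPM. SLC5A11, a carrier of inositol, fell by 2.71 ± 0.19 in 1-2 KO (adjusted p = 3.35e-08), from 2.41, 1.95 and 2.47 CPM to 0.285, 0.402 and 0.349 CPM. SLC6A15, a carrier of branched-chain amino acids, rose by 2.26 ± 0.47 in 1-2 KO (adjusted p = 0.000905) from a very low level, at 0.0533 to 0.101 CPM in WT and 0.251 to 0.593 CPM in 1-2 KO.

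Genes of the response to a shortage of amino acids were listed to set beside the carriers that ATF4 is known to raise. They were ATF4, DDIT3, ATF5, CEBPB, CEBPG, EIF2AK4, TRIB3, ASNS and CHAC1. All 9 of these genes rose in 1-2 KO, while in 1-1 KO 2 were higher, 2 lower and 5 not called. Among all genes, 28.2% rose in 1-2 KO, and 63.4% were called in 1-1 KO, where the share of this list was 44.4%. In 1-2 KO against 1-1 KO, 8 of the 9 were higher and 1 lower, beside 33.1% and 32.2% of all genes. The lower one was ATF5 (log2 -0.21, adjusted p = 0.00293), which rose by 0.42 in 1-1 KO and by 0.21 in 1-2 KO against WT. CEBPG rose by only 0.23 in 1-2 KO. Such a count depends on which genes are listed. SESN2 was placed with the nutrient-sensing genes instead, of which only RPTOR and SESN3 rose in 1-2 KO. CHAC1 (ENSG00000128965), an enzyme that breaks down glutathione and an ATF4 target, was at 3.42, 3.65 and 4.31 CPM in WT, at 5.36, 5.59 and 5.10 CPM in 1-1 KO and at 18.3, 18.3 and 18.9 CPM in 1-2 KO. The 1-2 KO libraries stood above all others, and the log2 fold change was 2.29 ± 0.09 in 1-2 KO (adjusted p = 3.9e-11) and 0.50 ± 0.09 in 1-1 KO (adjusted p = 0.000289). ASNS, the asparagine synthetase, was a low transcript and rose by 1.68 ± 0.16 in 1-2 KO (adjusted p = 6.75e-07). ATF4 itself was at 400, 425 and 430 CPM in WT, at 366, 352 and 349 CPM in 1-1 KO and at 498, 505 and 535 CPM in 1-2 KO, a log2 fold change of 0.29 ± 0.04 in 1-2 KO (adjusted p = 2.51e-05) and -0.23 ± 0.04 in 1-1 KO (adjusted p = 0.000163). TRIB3, a pseudokinase induced by ATF4, followed the same order, with -0.65 ± 0.06 in 1-1 KO (adjusted p = 6.73e-07) and 0.55 ± 0.06 in 1-2 KO (adjusted p = 3.52e-06). For CEBPB, 1-2 KO library 1 at 10.8 CPM stood above the other libraries of its line at 6.23 and 5.99 CPM, and without that library its rise was 0.26 with an adjusted p of 0.0535, which left 8 of 9 genes called. CEBPB also lost its call without WT library 1 (adjusted p = 0.0586).

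**Figure D5:**
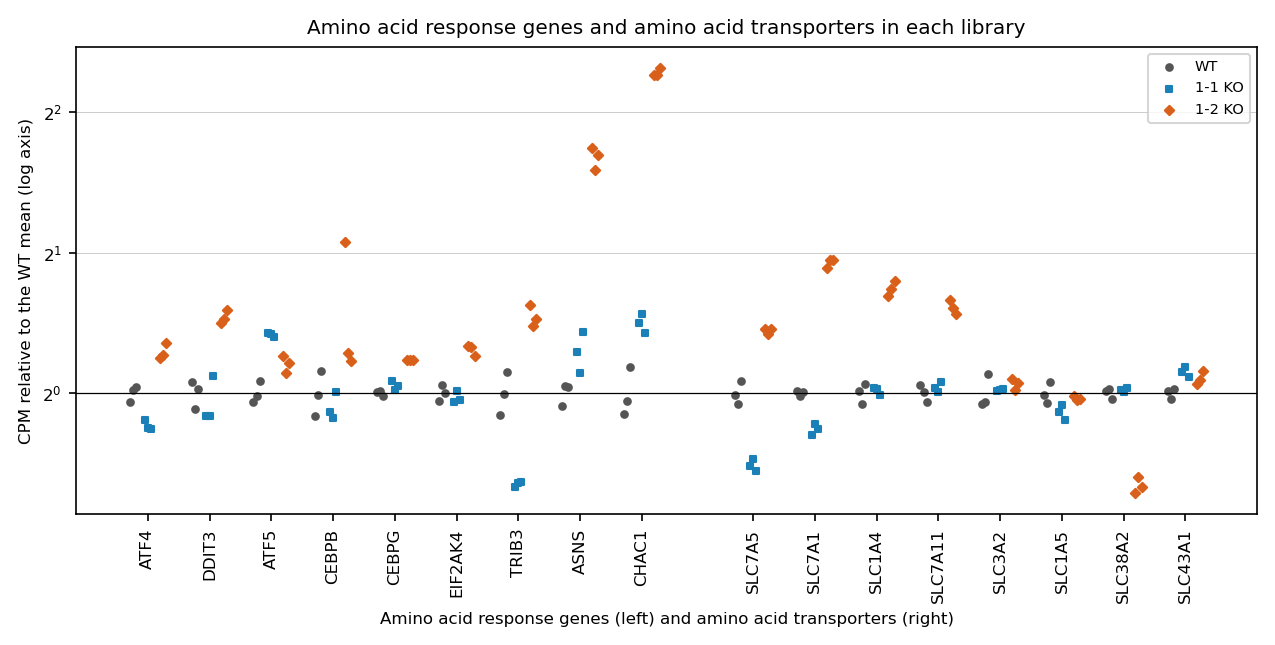
Level in each library relative to the WT mean (vertical log axis) of the 9 amino acid response genes on the left and of amino acid carriers on the right, in the 3 lines. The response genes, SLC7A5, SLC7A1, SLC1A4 and SLC7A11 lie above the WT mean in 1-2 KO, while SLC3A2, SLC1A5 and SLC43A1 stay near it and SLC38A2 lies below it, at a log2 fold change of -0.66.

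The carriers known as ATF4 targets did not move as 1 block. In 1-2 KO, SLC7A5, SLC7A1, SLC1A4 and SLC7A11, the last outside the 45 genes, rose by 0.44, 0.93, 0.74 and 0.61 on the log2 scale. SLC38A2 fell, and SLC3A2 and SLC1A5 were not called in the same line. In 1-1 KO, SLC7A5 and SLC7A1 fell by 0.51 and 0.26, while SLC1A4, SLC38A2 and SLC7A11 were at 0.02, 0.02 and 0.04 and were not called. SLC3A2 was not called in 1-1 KO either (0.02), and SLC1A5 fell slightly (-0.14). These carriers were set together after their values were seen.

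Promoters of these genes were searched for the element through which ATF4 and its C/EBP partners bind, spelled TGATGNAA, and for the E-box CACGTG, on both strands. RefSeq promoters on GRCh38.p14, which run from 250 bases before a start to 50 after it, were at hand for 34 of the 45 members with 54 starts. TGATGNAA was in 6 of these 54 promoters (11.1%), against 3.62% of all 35116 promoters, and CACGTG in 8 (14.8%), against 7.26%. Among 42 promoters of the further genes of the same families, the shares were 2.38% (1 promoter) and 9.52%. Among 79 promoters of the listed partner and control genes they were 8.86% and 11.4%. Starts are counted here, so a gene with several starts counts more than once, and the shares were not tested. Members with TGATGNAA at a start were SLC7A1, SLC1A4, SLC3A2, SLC1A5, SLC38A1 and SLC1A3, whose log2 fold changes in 1-2 KO were 0.93, 0.74, 0.06, -0.04, -0.09 and -1.02. All of them but SLC7A1 also have other listed starts that lack the element. Counts per gene do not show which start was used. A match of these letters is a description and no binding site, and its part in the changes was not tested.

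Promoters of 2 carriers that rose in 1-2 KO and hold the element, of 2 that hold it without a rise, of SLC7A5, which rose and holds only the E-box, and of the response genes ASNS and CHAC1 are printed here, 5′ to 3′ along the gene. For SLC1A4, SLC38A1 and SLC3A2, only the start that holds the element is printed. Capitals mark TGATGNAA or CACGTG on either strand, and positions are counted from the start, with -1 for the base before it. SLC7A1 (minus strand, chr13:29595639-29595938) holds the element from position 8 and SLC1A4 (plus strand, chr2:64989149-64989448) from -7. In SLC38A1 (minus strand, chr12:46266467-46266766) it begins at -4 and in SLC3A2 (plus strand, chr11:62881449-62881748) at 38. The E-box of SLC7A5 (minus strand, chr16:87869458-87869757) begins at -130. ASNS (minus strand, chr7:97872359-97872658) holds TGATGNAA from -68, and CHAC1 (plus strand, chr15:40953221-40953520) from -209.
SLC7A1: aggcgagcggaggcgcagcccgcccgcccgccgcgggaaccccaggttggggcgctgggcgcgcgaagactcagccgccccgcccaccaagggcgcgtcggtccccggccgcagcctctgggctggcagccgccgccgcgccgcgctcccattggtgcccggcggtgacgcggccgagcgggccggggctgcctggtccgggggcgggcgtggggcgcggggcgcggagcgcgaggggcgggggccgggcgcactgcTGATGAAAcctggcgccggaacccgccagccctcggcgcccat
SLC1A4: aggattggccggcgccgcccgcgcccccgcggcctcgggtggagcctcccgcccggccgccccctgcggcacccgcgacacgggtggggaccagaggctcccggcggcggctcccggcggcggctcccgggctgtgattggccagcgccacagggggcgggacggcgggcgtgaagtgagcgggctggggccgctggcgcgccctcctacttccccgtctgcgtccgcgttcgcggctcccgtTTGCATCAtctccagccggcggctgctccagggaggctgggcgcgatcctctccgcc
SLC38A1: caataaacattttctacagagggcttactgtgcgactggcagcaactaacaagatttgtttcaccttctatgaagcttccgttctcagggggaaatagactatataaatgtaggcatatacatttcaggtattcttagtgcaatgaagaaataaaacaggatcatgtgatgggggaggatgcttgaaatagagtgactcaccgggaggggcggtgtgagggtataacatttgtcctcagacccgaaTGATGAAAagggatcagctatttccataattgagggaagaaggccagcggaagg
SLC3A2: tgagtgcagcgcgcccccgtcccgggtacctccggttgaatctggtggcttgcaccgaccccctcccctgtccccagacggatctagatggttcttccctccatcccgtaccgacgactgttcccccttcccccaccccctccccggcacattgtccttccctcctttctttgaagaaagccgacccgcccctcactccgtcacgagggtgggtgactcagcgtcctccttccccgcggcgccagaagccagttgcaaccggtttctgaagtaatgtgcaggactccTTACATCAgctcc
SLC7A5: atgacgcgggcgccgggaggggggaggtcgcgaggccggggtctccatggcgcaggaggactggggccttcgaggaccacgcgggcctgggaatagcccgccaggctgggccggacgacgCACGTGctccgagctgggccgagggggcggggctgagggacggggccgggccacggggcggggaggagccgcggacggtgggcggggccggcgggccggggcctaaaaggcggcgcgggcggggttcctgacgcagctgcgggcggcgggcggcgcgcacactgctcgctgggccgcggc
ASNS: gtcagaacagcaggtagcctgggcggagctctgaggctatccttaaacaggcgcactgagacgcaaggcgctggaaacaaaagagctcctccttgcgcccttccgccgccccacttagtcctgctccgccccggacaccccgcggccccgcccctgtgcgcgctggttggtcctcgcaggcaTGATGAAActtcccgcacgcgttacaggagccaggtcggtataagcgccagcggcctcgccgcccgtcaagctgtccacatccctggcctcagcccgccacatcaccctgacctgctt
CHAC1: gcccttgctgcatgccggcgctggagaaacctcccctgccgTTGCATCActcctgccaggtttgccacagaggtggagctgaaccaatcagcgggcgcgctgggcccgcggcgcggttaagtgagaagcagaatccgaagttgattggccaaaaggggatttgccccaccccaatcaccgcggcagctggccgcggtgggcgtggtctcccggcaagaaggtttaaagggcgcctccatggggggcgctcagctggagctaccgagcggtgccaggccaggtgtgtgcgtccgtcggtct

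Of 9 genes that control the trafficking and turnover of carriers, 2 were called higher and 4 lower in 1-1 KO, with 2 higher and 4 lower in 1-2 KO. This is 66.7% of the list in each knockout, near the 63.4% of all genes in 1-1 KO and beside 54.4% in 1-2 KO. ARRDC4 (ENSG00000140450), an arrestin-like adaptor that removes glucose carriers from the surface, was at 0.402, 0.24 and 0.222 CPM in WT, at 0.331, 0.0973 and 0.539 CPM in 1-1 KO and at 4.75, 5.25 and 5.02 CPM in 1-2 KO. It rose 16.9-fold in 1-2 KO (log2 4.08 ± 0.28, adjusted p = 2.25e-08) and overlapped WT in 1-1 KO. Its relatives TXNIP and ARRDC3, by contrast, fell in 1-2 KO by 0.60 and 0.46. SGK1, a kinase that holds several carriers at the surface, rose by 1.95 ± 0.04 in 1-1 KO (adjusted p = 5.58e-14) and by 1.59 ± 0.04 in 1-2 KO (adjusted p = 4.7e-13). SGK1, TXNIP, ARRDC3, SLC7A11 and the response genes other than CHAC1 did not reach the log2 fold change of 2 set for naming and were chosen after their values were seen.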

How the data were processed

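RNA was measured in 9 libraries, 3 from each line, prepared with a stranded mRNA kit. The authors aligned the reads to hg38 (GRCh38) with STAR and obtained counts per gene from featureCounts, and they used DESeq2 for their own comparisons. Tool versions, the strand setting and the handling of reads with several matches were not given in the sources used here, so genes with near-identical or overlapping copies are uncertain. The deposited counts are raw read counts per Ensembl gene, without normalization, and no other columns of values were present. Of 60664 genes, 201, with 0.0192% of the counts, had no entry in GENCODE 44, the source of names, coordinates and exon lengths.

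Genes with low counts were removed with edgeR's filterByExpr (minimum count 10, minimum total 15), which left 17207. All 9 libraries were fitted together by line with edgeR's quasi-likelihood test (edgeR 4.0.16, limma 3.58.1, R 4.3.3) after TMM normalization, which differs from the tool the authors used. Genes with a Benjamini-Hochberg adjusted p under 0.05 were called, and the biological coefficient of variation was 5.55%. The fit was tested on simulated data. CPM and RPKM use TMM library sizes, and a group at 3 counts or fewer per library was given that floor, which covers counting error only. Alternatives were DESeq2 1.42.0, its size factors, library size alone, no filter, only the lines compared, an adjusted p under 0.01, the replicate number as a block and leaving out each library. Figures and tables used Python 3.11.15, pandas 2.3.3, numpy 2.4.6 and matplotlib 3.10.9. With 32384469 to 41782387 counts per library, members at a few counts per library carry wide errors.

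All 45 members are accounted for. Full values are given for members called with a log2 fold change of at least 1 in a knockout, and genes of the other lists are named from a log2 fold change of 2, except some that are not reported here. The members and lists were chosen with earlier results of these data known. The counts of amino acid response genes under each alternative were added after seeing the data.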

Additional observations from a re-analysis of the deposited data

How the results depend on the processing

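The counts of called transporters stayed within 1.5 times of those given under every alternative run. With 1 library left out, 16 to 18 members rose and 12 to 15 fell in 1-1 KO, 19 to 21 rose and 13 to 14 fell in 1-2 KO, and 13 to 16 were higher and 13 to 15 lower in 1-2 KO than in 1-1 KO. Under the other alternatives the ranges were 16 to 18 and 12 to 16, 19 to 20 and 12 to 15, and 13 to 15 and 13 to 15. With library size alone, SLC1A5 in 1-2 KO stood at 0.017 in place of -0.04, uncalled in both cases. This scaling also ended the calls of SLC1A5 (adjusted p = 0.0855) and SLC2A13 (0.109) in 1-1 KO and of SLC7A6 (0.0566), SLC29A2 (0.206) and SLC38A1 (0.345) in 1-2 KO. With DESeq2 the adjusted p of SLC2A4 in 1-1 KO was 0.084 and that of SLC6A13 between the knockouts 0.0604. Leaving out 1 library turned the sign of 8 uncalled members and of no called one. In 1-1 KO against WT, SLC1A4 then ranged from -0.0227 to 0.0506, SLC2A6 from -0.20 to 0.10, SLC3A2 from -0.0182 to 0.10 and SLC2A10 from -0.62 to 0.37. In 1-2 KO against WT, SLC38A4 ranged from -0.0129 to 0.0670. Between the knockouts, SLC29A1 ranged from -0.0592 to 0.000358, SLC29A2 from -0.0475 to 0.0195, SLC2A12 from -0.49 to 0.20 and SLC38A4 from -0.0396 to 0.00133. The cause was not tested. All 9 response genes were called in 1-2 KO under the alternatives run for them, except for 8 without WT library 1 or 1-2 KO library 1, and an adjusted p under 0.01 was not run for this list.

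The replicate numbers did not pair the libraries, since the deviations of same-numbered libraries correlated at -0.187 to 0.0474. With the replicate number as a block, 17 members rose and 13 fell in 1-1 KO, 19 rose and 14 fell in 1-2 KO, and 14 were higher and 14 lower in 1-2 KO than in 1-1 KO. SLC2A13 in 1-1 KO (adjusted p = 0.0520) and SLC43A1 and SLC38A1 in 1-2 KO (adjusted p = 0.0517 and 0.0592) were then not called, and a library correlated best with its own number in another line in 3 of 18 cases.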

Other observations

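Enzymes that take the first step on the cargo of these carriers were listed as well, 20 genes of which 17 were tested. In 1-1 KO 7 rose and 3 fell, in 1-2 KO 6 rose and 4 fell, and in 1-2 KO against 1-1 KO 4 were higher and 12 lower. The share called was 58.8% in each knockout, beside 63.4% of all genes in 1-1 KO and 54.4% in 1-2 KO, and 94.1% between the knockouts, beside 65.3%. HK1, the hexokinase of most tissues, was at 1.63, 1.52 and 1.20 CPM in WT, at 1.30, 1.34 and 1.27 CPM in 1-1 KO and at 5.98, 6.78 and 6.39 CPM in 1-2 KO. It rose by a log2 fold change of 2.12 ± 0.12 in 1-2 KO (edgeR's quasi-likelihood test, adjusted p = 3.19e-09), while HK2, the abundant hexokinase of these cells, was at -0.20 ± 0.03. CKB, a creatine kinase, rose by 1.24 ± 0.11 in 1-1 KO and 0.73 ± 0.11 in 1-2 KO. GCKR, the regulator of glucokinase, fell by 1.93 ± 0.19 in 1-2 KO and was at -0.01 ± 0.16 in 1-1 KO. HK2, CKB and GCKR were chosen after their values were seen.

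Of 11 genes that sense nutrients for the kinase mTORC1, 10 were tested. In 1-1 KO 5 rose, 1 fell and 4 were not called, and in 1-2 KO RPTOR (0.22 ± 0.06) and SESN3 (0.34 ± 0.05) rose and 8 were not called. These are 60% and 20% of the list, beside 63.4% and 54.4% of all genes. MTOR itself was at -0.09 ± 0.05 in both knockouts and was not called.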
